A study of Homo sapiens with 9 samples.

Results

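The 9 interferon-induced genes IFI44, IFI44L, IFI16, ISG15, IFIT1, IFIT3, MX1, OAS1 and IRF1 were followed across arrays labelled as IMR32, a human neuroblastoma line, with or without added choline acetyltransferase (ChAT), the enzyme that makes acetylcholine. The genes were taken by symbol from the platform annotation, and all 9 of them were measured, by 13 of the 22215 probe sets tested. They are 9 of the 11963 genes with a probe set of a single symbol. IFI44 had drawn attention by its large difference between the ChAT lines and the arrays labelled wild type in these same data, and the question was whether the other genes moved with it. Differences from those arrays are therefore given for the 9 genes as a description. Counts of their probe sets past the limma threshold are shown too, and nothing is read from them. The rule did not use the difference between both ChAT lines, which is tested, although earlier results of these data were known when the genes were chosen.

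Total RNA was measured on 9 single-channel oligonucleotide arrays. A group of 3 arrays came from cells stably expressing the 69-kDa form of ChAT, another 3 from cells stably expressing the 82-kDa form, and 3 were labelled wild-type IMR32. The design text calls the 3 arrays of a condition biological replicates. The form of ChAT and the line that carries it cannot be told apart, since there was 1 line per form. What drives the transgenes, and whether a line is 1 clone, was not stated. Values are intensities on a linear scale after RMA, a method that corrects background, normalizes between arrays and summarises probes, and differences are between means of log2 intensity with n = 3 per group.

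Interferons are secreted proteins that warn cells of infection. Type I interferons bind IFNAR1 and IFNAR2, interferon gamma binds IFNGR1 and IFNGR2, and both act through JAK kinases and STAT transcription factors. Type I signalling ends in a STAT complex with IRF9 that binds the interferon-stimulated response element (ISRE), and antiviral genes with that element are commonly induced together in many cell types. IRF1 is itself a transcription factor of this response and is induced mainly through another element, the gamma-activated site (GAS).

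Over all probe sets an array of one line correlated at 0.976 to 0.994 with an array of the other, and at 0.913 to 0.933 with an array labelled wild type. The markers of those arrays went against their label. MYCN, the oncogene amplified in IMR32, read 62.5 to 120 on them and 4181 to 6118 on the 6 arrays of the lines. Of 11 measured neuroblastoma and sympathetic neurone markers 7 were higher and 1 lower in each line than on those arrays, with summed intensities of 2179 to 2578 there, 9678 to 15544 in 69-kDa cells and 12325 to 16422 in 82-kDa cells. Of 8 epithelial markers 6 were lower in each line, and their summed intensity was 5495 to 6265 under the wild-type label and 342 to 402 on the lines. Of 10 measured leukocyte markers 0 changed in either line by limma (adjusted p under 0.05), with summed intensities of 895 to 1160 in 69-kDa cells, 895 to 1145 in 82-kDa cells and 805 to 901 under the wild-type label. Of 8 fibroblast markers 0 passed in 69-kDa cells and 1 was lower in 82-kDa cells. Their summed intensities were 4648 to 7646, 4639 to 6626 and, under the wild-type label, 8506 to 9725. Over all genes 11.7% were higher and 17.7% lower in 69-kDa cells, and 11.8% and 18.5% in 82-kDa cells. In lists this short a count of 0 says little. CHAT itself read 175 to 256 in 69-kDa cells, 423 to 1067 in 82-kDa cells and 114 to 148 under the wild-type label, with a limma adjusted p of 5.7e-04 for the 82-kDa cells and 0.23 for the 69-kDa cells against that label. The part of the marker differences in the results was not tested, and the difference between the lines is the one whose means do not use the arrays labelled wild type, although its pooled spread does. Replicate 1 also stood apart from replicates 2 and 3 in each group, and replicate numbers are given wherever this touches a value. In bulk samples fewer cells with a transcript and less transcript per cell cannot be told apart.

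The sequences upstream of the genes were searched for the elements named above. The 250 bases before each annotated start in RefSeq (GRCh38.p14) were searched on both strands for the core of the ISRE (GAAA, any 2 bases, GAAA, or TTTC, any 2 bases, TTTC on the opposite strand) and for the GAS (TTC, any 3 bases, GAA, which is the same on both strands). Overlapping matches were counted. All 9 genes had an entry, some with several starts, and 6 held the ISRE core before at least 1 start, against 3.71% of 27305 genes. The GAS letters stood before 3 of the 9 genes, IRF1, MX1 and OAS1, against 8.09% of all genes. The upstream regions of 3 genes are shown because IFI44 and its neighbour IFI44L lie side by side on chromosome 1 and both hold the core, while IFI44 read high in the lines and IFI44L did not, and because ISG15, with a pair of overlapping cores, read lower there. Capitals mark the ISRE core in the orientation of the gene.
IFI44 chr1:78649539-78649788 (+ strand): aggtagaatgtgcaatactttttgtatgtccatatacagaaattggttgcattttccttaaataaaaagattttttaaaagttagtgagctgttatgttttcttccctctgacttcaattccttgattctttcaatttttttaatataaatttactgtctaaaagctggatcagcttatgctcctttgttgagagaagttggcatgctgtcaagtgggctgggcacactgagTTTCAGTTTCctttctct
IFI44L chr1:78620198-78620447 (+ strand): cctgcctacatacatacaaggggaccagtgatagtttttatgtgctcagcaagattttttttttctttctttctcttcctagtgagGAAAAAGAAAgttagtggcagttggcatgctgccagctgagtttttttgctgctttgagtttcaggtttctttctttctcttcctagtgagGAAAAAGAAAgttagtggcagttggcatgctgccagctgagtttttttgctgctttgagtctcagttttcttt
ISG15 chr1:1013247-1013496 (+ strand): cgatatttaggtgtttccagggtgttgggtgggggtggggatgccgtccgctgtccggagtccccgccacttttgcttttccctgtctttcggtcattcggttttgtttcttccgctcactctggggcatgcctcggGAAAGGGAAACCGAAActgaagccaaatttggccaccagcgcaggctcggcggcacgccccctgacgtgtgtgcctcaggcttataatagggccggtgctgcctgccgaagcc
In IFI44 the match TTTCAGTTTC began 18 bases before the first of its annotated starts. In IFI44L the match GAAAAAGAAA occurred at both 164 and 73 bases before the start, and in ISG15 GAAAGGGAAA and GAAACCGAAA began 113 and 107 bases before it. IFIT1, IFIT3 and MX1 also held the core, before 1 of 3 starts in MX1. No match to the ISRE core was found in these windows of IFI16, OAS1 and IRF1, which says only that these letters are not there. The search asked for exactly 2 bases in the middle, so other spacings were not counted. With 1 base there, gaaacgaaa stands in the OAS1 window and in a window of IFI16. Likewise tttcgtttc stands before an MX1 start that had no match. These genes are therefore not shown to lack the element. A match is a string of letters, not a measured binding site.

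IFI44, a cytoplasmic protein induced by type I interferon, read high in both ChAT lines and near background under the wild-type label. By probe set 214453_s_at it read 728, 760 and 722 in 69-kDa cells, 754, 963 and 994 in 82-kDa cells, and 34.0, 30.1 and 29.0 under the wild-type label. All 6 arrays of the lines stood far above all 3 others, and replicate 1 of the 69-kDa line lay between its replicates 2 and 3. The mean log2 intensity was 9.52 ± 0.040 (SD, n = 3) in 69-kDa cells, 9.81 ± 0.22 in 82-kDa cells and 4.95 ± 0.12 under the wild-type label. The difference was 4.57 (SE 0.12) for the 69-kDa line and 4.86 (SE 0.12) for the 82-kDa line on the log2 scale, about 23.8-fold and 29.0-fold. These were the 13th and the 10th highest differences of the 22215 probe sets. The lower group lay under 55.9, the smallest of the lower quartiles of the 9 arrays, which serves here as the mark of a dim probe set, so the folds are approximate.

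The second IFI44 probe set, 214059_at, pointed the same way with a smaller difference. It read 153, 225 and 192 in 69-kDa cells, 210, 138 and 188 in 82-kDa cells, and 54.5, 52.4 and 54.9 under the wild-type label. The lines did not overlap those arrays, and the lines overlapped each other. The difference was 1.80 (SE 0.18) and 1.71 (SE 0.18) on the log2 scale, about 3.48-fold and 3.26-fold, again against values under 55.9. Which part of the transcript each probe set covers was not analysed here.

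**Figure D1:**
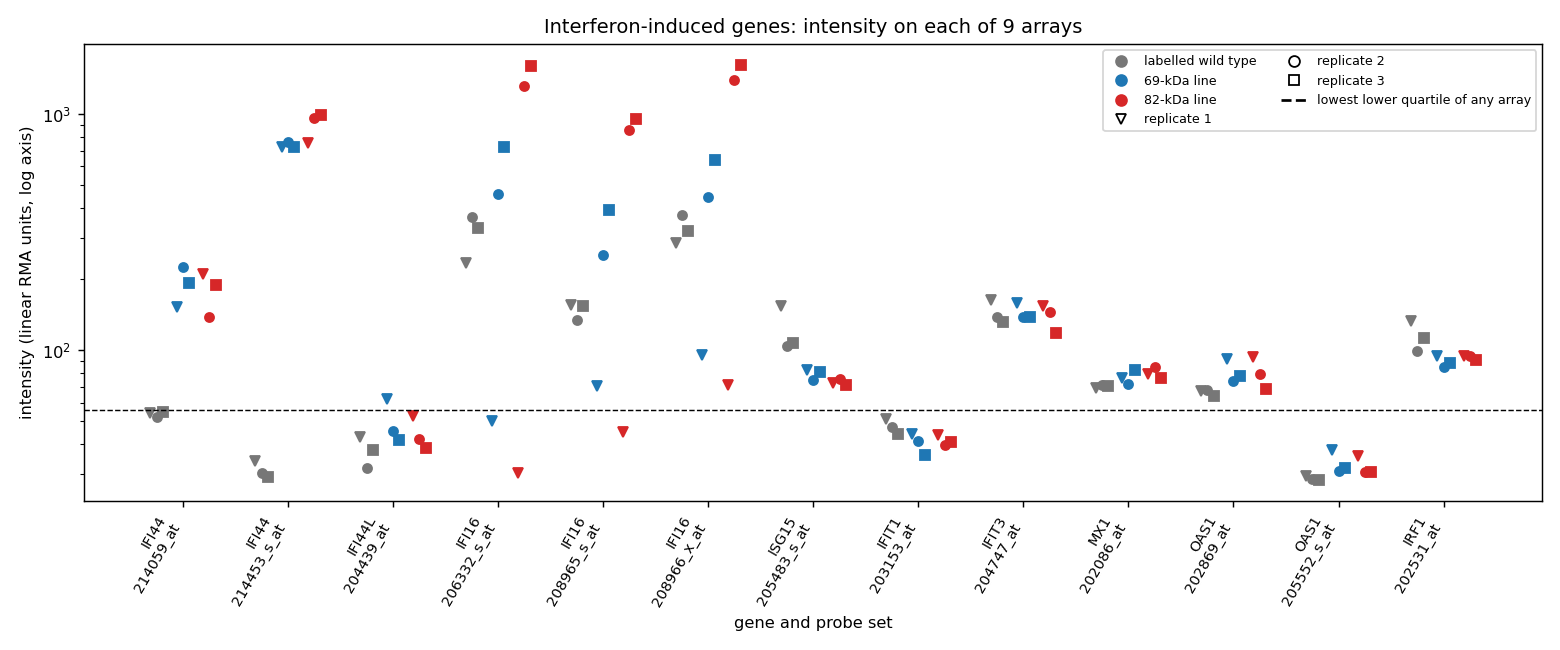
Intensity of the 13 probe sets of the 9 genes on each array, on a log axis, with 1 point per array, colour for the group and marker shape for the replicate number. The dashed line is the lowest lower quartile of any array, 55.9. IFI44 parts the lines from the arrays labelled wild type by the most, and IFI16 parts replicate 1 of the lines from replicates 2 and 3. The remaining genes lie closer together. Among them the lines stand below the arrays labelled wild type for ISG15, IRF1 and IFIT1, and just above them for MX1 and OAS1.

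IFI44L, the paralogue next to IFI44 and usually induced with it, was dim on most arrays. It read 62.3, 45.4 and 41.7 in 69-kDa cells, 52.6, 42.0 and 38.7 in 82-kDa cells, and 43.0, 31.9 and 37.8 under the wild-type label. All 3 groups overlapped, and 8 of the 9 arrays were under the lowest lower quartile. The difference was 0.39 (SE 0.18) for the 69-kDa line and 0.24 (SE 0.18) for the 82-kDa line on the log2 scale. Of 7 other measured neighbours of IFI44 on chromosome 1, chosen by place after the IFI44 values were seen, 3 rose in both lines by limma, where 11.7% of all genes rose in 69-kDa cells and 11.8% in 82-kDa cells. PTGFR, a prostaglandin receptor, differed by 0.37 and 0.47 on the log2 scale between dim values (adjusted p = 0.0080 and 0.0023), DNAJB4, a chaperone, by 0.91 and 1.01 (0.022 and 0.013), and ADGRL2, an adhesion receptor, by 0.80 and 1.11 (0.020 and 0.0038). ADGRL4, the nearest on the far side, differed by 0.00 and 0.04 (0.98 and 0.76), and the 3 left, GIPC2, TTLL7 and PRKACB, did not pass.

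ISG15, a ubiquitin-like protein that is attached to other proteins after interferon, read lower in both lines. Its values were 82.2, 74.8 and 81.2 in 69-kDa cells, 72.4, 75.3 and 71.1 in 82-kDa cells, and 154, 104 and 107 under the wild-type label. The lines lay wholly below those arrays. The difference was -0.59 (SE 0.14) and -0.71 (SE 0.14) on the log2 scale, which is 1.51-fold and 1.64-fold lower. This is the direction opposite to IFI44.

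IRF1, a transcription factor of the interferon response, was also lower, by less. It read 94.6, 85.2 and 88.5 in 69-kDa cells, 94.6, 94.1 and 90.7 in 82-kDa cells, and 133, 98.8 and 113 under the wild-type label. Both lines lay wholly below those arrays and overlapped each other, and the difference was -0.35 (SE 0.11) and -0.29 (SE 0.11) on the log2 scale.

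IFIT1, which binds viral RNA, and its relative IFIT3 differed little. IFIT1 read 44.3, 41.4 and 36.0 in 69-kDa cells, 43.8, 39.6 and 40.9 in 82-kDa cells, and 51.0, 47.2 and 44.4 under the wild-type label, under 55.9 on all 9 arrays. Its lines lay just below those arrays, with differences of -0.23 (SE 0.10) and -0.20 (SE 0.10). IFIT3 read 158, 138 and 138 in 69-kDa cells, 154, 145 and 118 in 82-kDa cells, and 163, 138 and 132 under the wild-type label. Its groups overlapped and its differences were 0.01 (SE 0.13) and -0.06 (SE 0.13). Relatives of these genes are named after their values were seen. IFIT5, another RNA-binding member of the family, rose 2.03-fold in 69-kDa cells and 1.88-fold in 82-kDa cells by its brighter probe set (limma adjusted p = 0.016 and 0.027), and its dimmer one was 1.23-fold and 1.29-fold higher without passing (0.38 and 0.27). IFIT2, a further relative, was 1.17-fold and 1.27-fold higher and did not pass (0.53 and 0.34).

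MX1, a GTPase that blocks viral replication, was slightly higher in the lines. It read 76.0, 72.1 and 82.5 in 69-kDa cells, 79.1, 84.9 and 76.0 in 82-kDa cells, and 69.0, 71.1 and 70.5 under the wild-type label. The lines lay just above those arrays, with differences of 0.13 (SE 0.080) and 0.19 (SE 0.080) on the log2 scale, 1.09-fold and 1.14-fold. Its relative MX2 differed by 0.13 and 0.22 and did not pass.

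OAS1, an enzyme that senses double-stranded RNA and makes the oligoadenylates that activate an RNase, was also slightly higher by both probe sets. The brighter, 202869_at, read 91.4, 74.1 and 77.6 in 69-kDa cells, 93.4, 79.6 and 68.4 in 82-kDa cells, and 67.1, 68.2 and 64.0 under the wild-type label. Its lines did not overlap those arrays, though replicate 3 of the 82-kDa line, at 68.4, lay next to the highest of them, at 68.2, and its differences were 0.28 (SE 0.13) and 0.27 (SE 0.13). The dimmer, 205552_s_at, read 28.3 to 38.0 on all 9 arrays, under the lowest lower quartile, with differences of 0.22 (SE 0.10) and 0.16 (SE 0.10). The related OAS2 differed by 0.14 and 0.05 and OAS3 by -0.18 and -0.17, and neither passed.

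IFI16, a nuclear DNA sensor that can set off interferon production, had the widest spread within the lines of the 9 genes, with an SD of 1.3 to 3.2 on the log2 scale. By probe set 206332_s_at it read 50.3, 458 and 727 in 69-kDa cells and 30.3, 1307 and 1590 in 82-kDa cells, in the order of the replicate numbers, and 234, 368 and 328 under the wild-type label. Replicate 1 of each line lay below all arrays labelled wild type, and replicates 2 and 3 lay above all of them. The other IFI16 probe sets repeated the pattern. Probe set 208965_s_at read 70.3, 253 and 393 in 69-kDa cells, 45.1, 851 and 949 in 82-kDa cells, and 156, 134 and 154 under the wild-type label. Probe set 208966_x_at read 95.3, 443 and 640, then 71.4, 1395 and 1615, then 284, 373 and 320, in the same order of groups.

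Replicates 2 and 3 of the 82-kDa line exceeded its replicate 1 on average 47.5-fold, 19.9-fold and 21.0-fold by the 3 IFI16 probe sets, and those of the 69-kDa line exceeded replicate 1 11.5-fold, 4.48-fold and 5.59-fold. The arrays labelled wild type gave 1.49-fold, 0.915-fold and 1.22-fold for the same ratio. Over the whole table, replicate 1 was at least 2-fold below both other arrays of the same line in each ChAT line at 95 probe sets, 0.428% of those tested, and all 3 IFI16 probe sets were among them. This fold limit was chosen after the IFI16 values were seen, so it is a description. No probe set of the other 8 genes met it. With such a spread, the differences of IFI16 from the arrays labelled wild type were -0.25 (SE 1.5), 0.37 (SE 1.1) and -0.11 (SE 1.2) in 69-kDa cells and 0.39, 1.17 and 0.75 in 82-kDa cells. Without replicate 1 of the 69-kDa line they were 0.92, 1.09 and 0.72 there, and without replicate 1 of the 82-kDa line 2.24, 2.61 and 2.21 there. Without replicate 3 they moved the other way, to -1.01, -0.15 and -0.65 in 69-kDa cells and to -0.61, 0.41 and -0.04 in 82-kDa cells, so IFI16 had no settled direction against those arrays. The measured neighbours of IFI16 that belong to the same family, MNDA, PYHIN1 and AIM2, read 24.7 to 28.3, 57.1 to 68.3 and 87.2 to 138 on all 9 arrays and did not show this pattern.

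**Figure D2:**
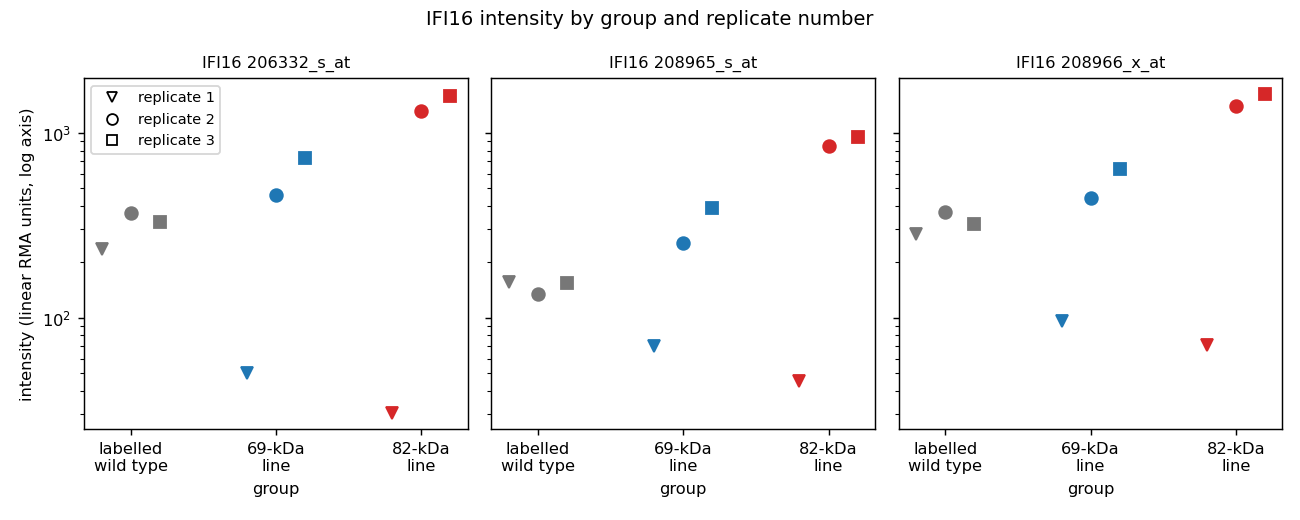
Intensity of the 3 IFI16 probe sets on a log axis, by group, with 1 point per array and marker shape for the replicate number. In both lines replicate 1 lies below the arrays labelled wild type and replicates 2 and 3 lie above them, and among replicates 2 and 3 the 82-kDa line reads higher than the 69-kDa line.

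Counted over all 13 probe sets, 5 stood wholly above the arrays labelled wild type in both lines, 3 wholly below in both, and 5 overlapped them. Over all probe sets the share wholly above was 22.5% in 69-kDa cells and 20.9% in 82-kDa cells, and the share wholly below was 21.2% and 21.3%. The limma threshold was passed upward by 2 of 13 in 69-kDa cells, both of IFI44, where 10.9% of all probe sets were higher, and downward by 2, of ISG15 and IRF1, where 15.3% were lower. In the 82-kDa line it was passed upward by the same 2, where 11.0% were higher, and downward by 1, of ISG15, where 15.7% were lower. The choice of the genes used these comparisons, so nothing is read from these counts. The same holds for the counts below with the block or with arrays left out. The 11 probe sets other than those of IFI44 had a median log2 difference of 0.01 in 69-kDa cells and 0.19 in 82-kDa cells, beside 0.058 and 0.062 over all probe sets. Without IFI16 too, the 8 left ranged from -0.59 to 0.39 in 69-kDa cells and from -0.71 to 0.27 in 82-kDa cells. With the replicate number as a block 3 were higher and 3 lower in 69-kDa cells, where 16.6% and 19.9% of all probe sets were, and 2 were higher and 2 lower in 82-kDa cells, where 17.9% and 20.3% were. Both comparisons share the same 3 arrays labelled wild type. Leaving out single arrays moved these counts. The count of 2 lower in 69-kDa cells became 0 without its replicate 2 and 1 without its replicate 3, without replicate 2 or 3 of the 82-kDa line, or without replicate 1 or 3 of the arrays labelled wild type. In the 82-kDa line 4 were higher without its replicate 1, and 2 were lower without replicate 2 of the arrays labelled wild type.

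**Figure D3:**
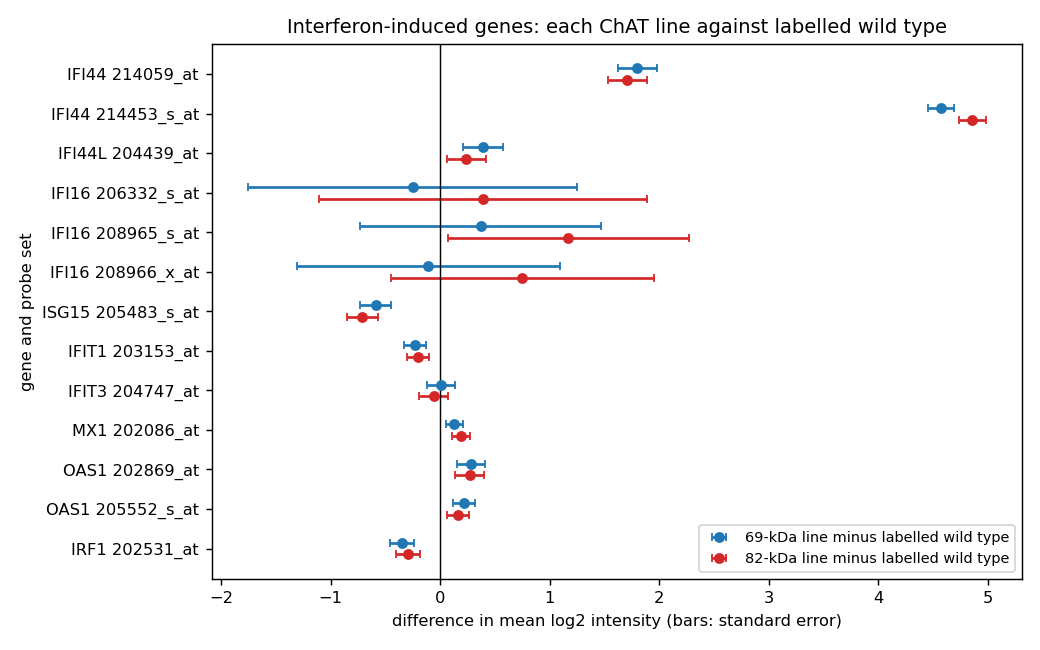
Difference in mean log2 intensity of each ChAT line from the arrays labelled wild type for the 13 probe sets, with bars of 1 standard error from limma. The IFI44 probe sets stand at 1.71 to 4.86, ISG15 and IRF1 lie below 0, and the wide bars belong to IFI16.

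The pattern of IFI44 over the 9 arrays, by its brighter probe set 214453_s_at, was set against every probe set of a single other symbol. The measure was the root mean square difference of log2 profiles after each was centred on its own mean. It counts the size of a difference as well as its direction. Of the 8 nearest of 19063 candidates, 7 are named and 1 is not reported here. They belonged to MYCN (0.153), TLX2, a homeobox factor of neural crest (0.186 and 0.264), NBAS, a neighbour of MYCN (0.194), SYT1, a synaptic vesicle calcium sensor (0.272), CHRNA3, a nicotinic receptor subunit (0.276), and OLFM1, a secreted neuronal protein (0.301). These are genes high in the lines and low under the wild-type label. The second IFI44 probe set, 214059_at, lay at 1.43, though it pointed the same way with a smaller difference. A small difference therefore puts a probe set far off whatever its direction. The nearest of the other interferon-induced genes was IFI44L at 2.10, in place 3386, and the farthest was an IFI16 probe set at 2.79, beside a median of 2.20 over all candidates. The order rests on the 3 arrays labelled wild type, and likeness over 9 arrays in 3 groups says nothing of shared control.

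Between the 82-kDa line and the 69-kDa line, 0 of the 13 probe sets passed limma's threshold (adjusted p = 1 for each), as did 0% of the 22215 probe sets tested. CHAT, the gene of the added enzyme, did not pass either, at 1.97 on the log2 scale (limma, SE 0.34, adjusted p = 0.70). Not passing therefore does not show that the lines agree. At an unadjusted p under 0.05 there were 733 probe sets over the whole table and 1 of the 13. That one was IFI44 214453_s_at, which was higher by 0.28 in 82-kDa cells on the log2 scale (limma, SE 0.12, 95% interval 0.018 to 0.55, adjusted p = 1), and its arrays overlapped because replicate 1 of the 82-kDa line, at 754, lay within 69-kDa cells. The other IFI44 probe set differed by -0.092 (interval -0.50 to 0.32). The interval was -0.12 to 0.24 for MX1 and -0.45 to 0.21 for ISG15, and those of IFI16 were wide, from -2.81 to 4.08 at 206332_s_at. No probe set of the 13 parted the lines without overlap, where 3.18% of all probe sets stood wholly above and 3.66% wholly below. With the replicate number as a block the count stayed at 0 of 13 and 0% of all, with 1465 probe sets and 0 of the 13 at an unadjusted p under 0.05. With array weights, which gave the replicate 1 arrays of the lines 0.186 and 0.164, 3 of the 13 were higher and 1 lower, where 7.67% of all probe sets passed. The IFI44 probe sets then passed in opposite directions, at 0.36 for 214453_s_at and -0.53 for 214059_at (limma adjusted p = 0.0048 and 0.023), and the other calls were of IFI16. Fitted on the 6 arrays of the lines alone, 0 of the 13 had an unadjusted p under 0.05, with 652 probe sets over the whole table.

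Restricted to replicates 2 and 3 of each group, 4 of the 13 probe sets passed limma's threshold between the lines, while 2.04% of all probe sets did. This subset was chosen with earlier results of these data known. IFI16 was higher in 82-kDa cells by all 3 of its probe sets, by 1.32 (SE 0.22, limma adjusted p = 0.038), 1.51 (SE 0.20, 0.020) and 1.5 (SE 0.18, 0.016) on the log2 scale. These 3 probe sets measure 1 gene. The array ratios of the 82-kDa to the 69-kDa line at 206332_s_at were 2.85 for replicate 2 and 2.19 for replicate 3, and 0.603 for replicate 1, which goes the other way. IFI44 214453_s_at was higher by 0.40 (SE 0.065, adjusted p = 0.037), while 214059_at differed by -0.37 without passing (adjusted p = 0.38), so the IFI44 probe sets disagreed in direction. With 2 arrays per group these values rest on little replication. The subset drops replicate 1, in which IFI16 goes the other way, so the IFI16 calls depend on which arrays are left out. With all arrays and the replicate block, the IFI16 probe sets had limma adjusted p of 0.943, 0.906 and 0.884. The subset therefore cannot decide whether the lines differ in IFI16, and nothing is concluded from it.

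**Figure D4:**
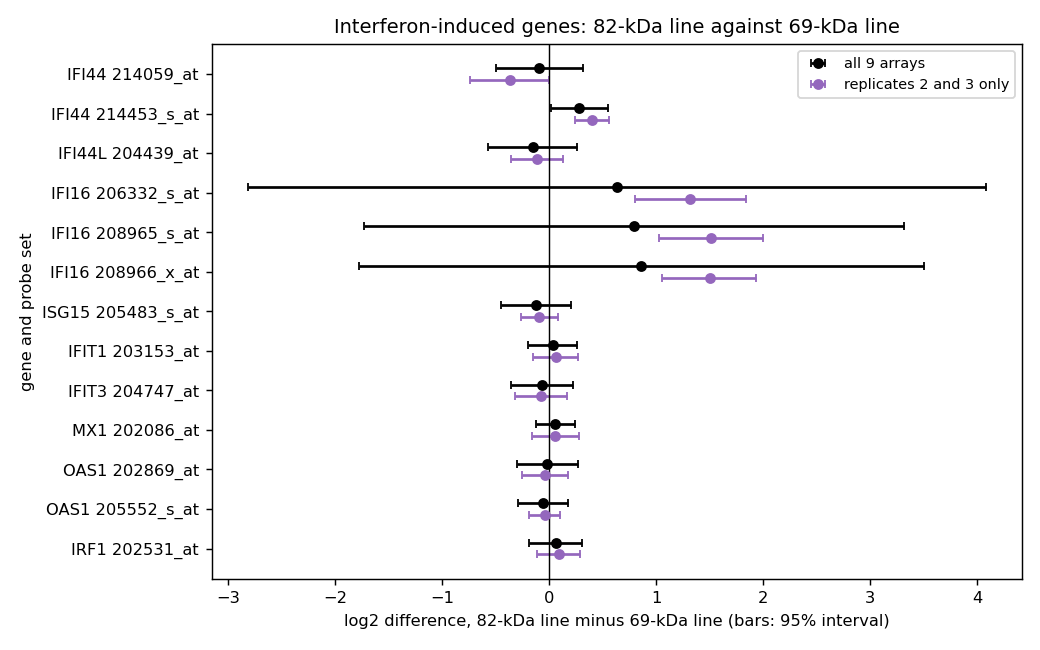
Log2 difference between the 82-kDa and the 69-kDa line for the 13 probe sets with 95% intervals from limma, over all 9 arrays and over replicates 2 and 3 only. With all arrays the intervals of IFI16 span 0 widely, and with replicates 2 and 3 they lie above it.

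Other genes of the interferon pathway were followed in 90 measured genes of 99 listed, by the brightest probe set of each. In the 69-kDa line 5 rose and 16 fell against the arrays labelled wild type, 5.56% and 17.8%, where 11.7% and 17.7% of all genes rose and fell. In the 82-kDa line 6 rose and 21 fell, 6.67% and 23.3%, where 11.8% and 18.5% of all genes did. The median log2 difference was -0.02 and -0.03, beside 0.052 in each comparison over all genes. With the replicate number as a block 9 rose and 25 fell in 69-kDa cells, where 17.4% and 22.9% of all genes did, and 15 rose and 24 fell in 82-kDa cells, where 18.3% and 23.6% did. Without replicate 1 of the 69-kDa line 8 rose there, and the share of all genes was not counted for that fit. The lists are not independent of earlier results of these data. The counts of single lists below are of few genes. Their background is the share of all genes without the block, 11.7% higher and 17.7% lower in 69-kDa cells. In 82-kDa cells it is 11.8% higher and 18.5% lower.

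The receptor genes that changed were lower in both lines. Of 9 ligand and receptor genes 4 fell and 0 rose in each line, so 44.4% fell, where 17.7% and 18.5% of all genes did. IL10RB, a receptor chain shared by interleukin 10 and type III interferons, read 47.3 to 57.0 and 42.5 to 47.2 in the 69-kDa and the 82-kDa line and 149 to 158 under the wild-type label, 2.90-fold and 3.35-fold lower (limma adjusted p = 5.6e-06 and 2.6e-06). IFNAR2, a chain of the type I receptor, fell 1.74-fold and 1.53-fold by its brighter probe set (0.0021 and 0.0081). Its dimmer one was 1.04-fold and 1.07-fold lower without passing (0.61 and 0.37). The gamma receptor chains IFNGR1 and IFNGR2 fell 1.39-fold and 1.29-fold in 69-kDa cells (0.013 and 0.025). In 82-kDa cells they fell 1.44-fold and 1.30-fold (0.0078 and 0.023). The ligand genes IFNA1, IFNA2 and IFNG, named whatever their values, lay between 21.9 and 41.6 on all 9 arrays, and IFNB1, the remaining ligand, lay between 42.4 and 61.7.

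Signalling genes moved both ways. Of 11 measured genes of JAK-STAT signalling, which are kinases, inhibitors, IRF9 and, of the STATs, STAT3, 1 rose and 1 fell in 69-kDa cells, and 1 rose and 3 fell in 82-kDa cells. The STATs of the ISRE complex were not analysed here. JAK1, the kinase shared by both receptors, fell 1.90-fold and 1.75-fold (adjusted p = 0.0091 and 0.017), and PIAS1, an inhibitor of STAT DNA binding, rose 2.08-fold and 1.72-fold (3.5e-04 and 0.0020). IRF9, the partner of STATs at the ISRE, was 1.12-fold and 1.14-fold higher without passing (0.66 and 0.62). Of 6 other interferon regulatory factors 2 fell in 69-kDa cells and 3 in 82-kDa cells, and 0 rose. IRF3, which switches on interferon genes after nucleic acid sensing, read 196 to 232 and 232 to 247 in the lines and 504 to 588 under the wild-type label, 2.57-fold and 2.31-fold lower (1.2e-05 and 2.4e-05). IRF7, which amplifies that step, was 1.51-fold and 1.44-fold lower (0.0015 and 0.0029).

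Of 17 sensors and their adaptors 1 rose and 2 fell in 69-kDa cells, and 2 rose and 4 fell in 82-kDa cells. MAVS, the mitochondrial adaptor of RNA sensors, fell 2.09-fold and 2.26-fold (adjusted p = 0.0011 and 6.3e-04), and TICAM1, the adaptor of TLR3, rose 1.59-fold and 1.58-fold (0.0012 each). IFIH1, an RNA sensor itself induced by interferon, fell 1.43-fold and 1.39-fold between values that were under 55.9 on all arrays (0.0050 and 0.0077), and its second probe set differed by 0.00 and -0.02.

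Among 37 other effectors 2 rose and 7 fell in each line. The share that fell, 18.9%, was near that of all genes, 17.7% and 18.5%. The share that rose was 5.41%, beside 11.7% and 11.8% of all genes, and rests on 2 genes, so nothing is read from it. UBE2L6, the enzyme that passes ISG15 to its targets, read 324 to 338 and 341 to 427 in the lines and 80.0 to 128 under the wild-type label, 3.35-fold and 4.0-fold higher (adjusted p = 9.1e-05 and 4.1e-05). USP18, which removes ISG15 and restrains the type I receptor, was lower by 3.49-fold and 3.95-fold (1.5e-04 and 9.0e-05). HERC5, the ligase that completes the attachment of ISG15, fell 6.0-fold and 6.37-fold, from 326 to 352 under the wild-type label to 46.6 to 69.0 on the lines (3.1e-06 and 2.6e-06). UBE2L6 thus rose while USP18 and HERC5 fell. NMI, which binds STATs, fell 2.24-fold and 2.25-fold (3.9e-05 each), and PARP12, a zinc finger antiviral protein, fell 2.64-fold and 2.44-fold (4.1e-04 and 6.7e-04). Of 10 genes induced mainly by interferon gamma 1 rose and 0 fell. That gene, SERPING1, the C1 complement inhibitor, read 327 to 499 and 385 to 529 in the lines and 53.7 to 68.0 under the wild-type label, 6.58-fold and 7.39-fold higher (1.0e-05 and 7.0e-06).

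**Figure D5:**
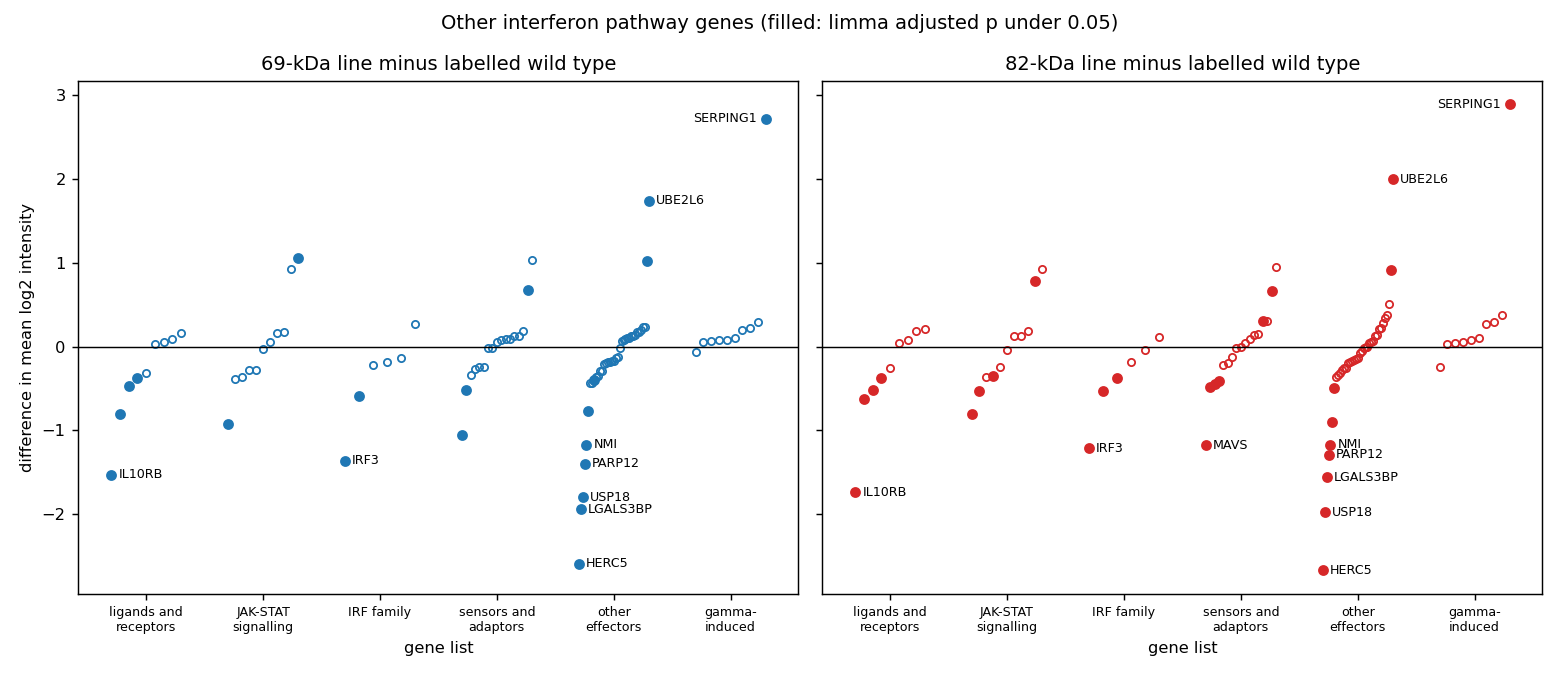
Difference in mean log2 intensity of each ChAT line from the arrays labelled wild type for 90 other genes of the interferon pathway, grouped by role, with 1 point per gene and filled points for a limma adjusted p under 0.05. SERPING1 and UBE2L6 are the highest points, and HERC5 the lowest.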

How the data were processed

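RNA of 9 samples labelled as IMR32 was measured on 1 array each. The deposited values are linear intensities after RMA, per the submitters' processing notes, with no version given, between 14.9 and 21486. The median of an array lay between 133.7 and 142.6. RMA pulls arrays to a common distribution, so a shift shared by most genes cannot be seen, and differences between dim probe sets are compressed. The number of arrays, 3 per group, limits the precision.

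Intensities were taken to log2 without a pseudocount, and 68 control probe sets were left out of 22283. The 3 group means were fitted over all 9 arrays with limma 3.58.1 in R 4.3.3, with moderated two-sided tests and Benjamini-Hochberg adjustment over 22215 probe sets at 0.05. The fit was tested on simulated data. Symbols came from the platform annotation, in which 19065 probe sets had 1 symbol, 1043 several and 2107 none. Lists were counted by the brightest probe set of each gene. Upstream sequences came from RefSeq, and 9 of 9 genes matched by symbol.

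Replicate numbers were checked for pairing. Deviations from the group means correlated at 0.278 to 0.573 for all 9 same-numbered pairs. Replicates 2 and 3 of different groups correlated at 0.209 to 0.475, and replicate 1 with replicate 2 or 3 at -0.594 to -0.279. These values set replicate 1 apart but do not tell replicate 2 from replicate 3. The labels say only which number a replicate has, so whether the numbers pair the arrays is not known. The replicate number was used as a block without that knowledge. Blocked counts are given beside the counts of the report.

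The members, lists and tests were chosen with earlier results of these data known. Named genes were all probe sets of the 9 genes, up to 5 genes per pathway list with the smallest adjusted p for the 69-kDa cells among those past 0.05 in both lines, the 8 probe sets most like IFI44, of which 1 is not reported here, and the partners IRF9, USP18, UBE2L6 and IFI44L. The alternatives were other scaling, a pseudocount, a filter on dim probe sets, another variance model, array weights, fewer samples, the block, probe set suffixes, a stricter threshold and leaving out each array. Of 99 listed pathway genes 9 were not analysed here.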

Additional observations from a re-analysis of the deposited data

How the results depend on the processing

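Every setting that included them kept the sign of both IFI44 probe sets against the arrays labelled wild type. IFI44 had drawn attention by this difference, so the kept sign is a description only. Against those arrays the sign turned for IFI16 and IFIT3. IFI16 in 69-kDa cells turned with replicates 2 and 3 only, to 0.73 at 206332_s_at and 0.62 at 208966_x_at, with array weights, to 0.57 and 0.47, and when its replicate 1 or 3 was left out, and in 82-kDa cells when replicate 2 or 3 was left out. IFIT3, near 0, turned in 4 settings in 69-kDa cells and 3 in 82-kDa cells. The counts below are of the 13 probe sets and then of the 90 pathway genes, except where a setting leaves probe sets out. The cause of each move was not tested. Counts of the 13 probe sets against the wild-type label are a description only. Against that label, shares over all probe sets or genes are given only for the main fit and the block. Nothing is read from the counts of the other settings. In 69-kDa cells against the wild-type label, 2 probe sets were higher and 2 lower, and 5 genes higher and 16 lower. With array weights 10 genes were higher and 29 lower, with the replicate block 9 and 25. With replicates 2 and 3 only 6 probe sets and 11 genes were higher. Leaving out probe sets with suffix _x_at or _s_at took those of ISG15 and IFI16, IFI44 214453_s_at and OAS1 205552_s_at out of the count. Of the rest 1 was higher and 1 lower. The probe sets lower were 1 with the 6 arrays compared and 0 at a threshold of 0.01. In 82-kDa cells 2 probe sets were higher and 1 lower, and 6 genes higher and 21 lower. Array weights gave 6 probe sets and 14 genes higher, the replicate block 15 genes higher, and replicates 2 and 3 only 5 probe sets and 13 genes. The probe sets lower were 2 with median centring, quantile normalization or the replicate block. Without suffix _x_at or _s_at 1 of the remaining probe sets was higher and 0 were lower, with ISG15 no longer counted. Of the pathway genes left in that setting 12 were lower. Between the lines, where 0 passed, array weights gave 3 probe sets higher and 1 lower, and 3 genes higher and 2 lower, and replicates 2 and 3 only gave 4 probe sets higher. Leaving out single arrays gave, in 69-kDa cells, 0 to 2 probe sets lower and 4 to 8 genes higher, and in 82-kDa cells 2 to 4 probe sets higher and 1 to 2 lower. Weights were fitted gene by gene, since the default method did not converge. Dim probe sets, among them 2 of the 13 on all 9 arrays, limit what small differences can show.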
